A study of Mus musculus with 3 samples.

Results

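miR‐9‐5p is a microRNA (miRNA) of the nervous system. miRNAs are short RNAs loaded into Argonaute proteins such as Ago2, where the bases near their 5′ end, the seed, pair with sites that lie mostly in the 3′UTRs of mRNAs and lower the stability or translation of those mRNAs. In the developing brain, miR‐9‐5p is known for acting on factors that hold neural progenitors in cycle or keep neuronal genes off, among them the repressor REST, the nuclear receptor Tlx (Nr2e1) and Hes1. The Onecut homeodomain factors are also known targets.

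The regions described here are stretches of mouse 3′UTR that were covered by Ago2 peaks and that hold a seed match for miR‐9‐5p. The data were 3 HITS‐clip libraries, called replicates 1 to 3, of a mouse neuroblastoma cell line, N2A, in its basal state, and there was no other group. HITS‐clip crosslinks RNA to protein in living cells with UV light (here 400 and then 2 exposures of 200 mJ/cm2), pulls the protein down (here Ago2) and sequences the RNA bound to it. N2A is a single tumor cell line, and the labels do not say whether the 3 samples came from separate cultures, so the spread between them may be technical. No cells without crosslinking, without the antibody or without miR‐9 were part of the samples analysed here.

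The members were chosen by these same peaks: a stretch of at least 8 nt, on the strand of the gene, covered in at least 2 of the 3 libraries, with all 7 bases of the match inside it. One 3′UTR, the longest, was taken for each of 21671 protein‐coding genes. Of 30379 such stretches in the series, 298 (0.981%) held a match, and they carried 303 sites in 272 genes. Across all 3′UTRs there were 3051 matches in 2569 genes, of which 620 lay under a peak of exactly 1 library and 2128 under a peak of no library. The 3′UTRs of the 272 genes held a further 63 matches outside such stretches, 31 under a peak of 1 library and 32 under none. Because coverage in 2 libraries was what selected the sites, the number of libraries over a member is given as a description and not as a test.

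The mature miRNA is shown first, with positions 2 to 8 in capitals, because the match was defined by these bases. The other 2 are the let‐7 and miR‐17 family miRNAs used for comparison. All were taken from RefSeq (GRCm38.p6).
miR‐9‐5p: uCUUUGGUuaucuagcuguauga
let‐7a‐5p: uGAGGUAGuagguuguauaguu
miR‐17‐5p: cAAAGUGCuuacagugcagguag
In the DNA letters of the transcript strand, the match to miR‐9‐5p reads ACCAAAG. A match followed by A is called an 8mer here, and any other a 7mer‐m8. The let‐7a‐5p match is CTACCTC and the miR‐17‐5p match GCACTTT.

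Among the members, the 10 8mers covered in all 3 libraries within the shortest stretches are shown next with their surroundings. Each run is 30 nt of the transcript strand (GRCm38), with the match in capitals.
Exosc2: cccagaaaaaagaaaACCAAAGacaaagac
Fam126b: caatttacaaaatttACCAAAGaaaatgtt
Rps6ka4: tgtgcaatgatgtccACCAAAGacctgtgt
Pou2f1: ccatttccagccaaaACCAAAGatttctta
Fnbp4: taatcacaatagttaACCAAAGataatagt
Ccnt1: ccattttcttatcagACCAAAGaacaaaaa
Cbx5: ccaaagcattcctgtACCAAAGaggcatca
Nedd4: aatttgtttaaaataACCAAAGagtagttc
Gch1: gacttgacttagaggACCAAAGagattgtt
Nrp2: aaaaggtcaaaatctACCAAAGaacaacaa
The letters around the match differed from gene to gene. The share of A or T in the 30 nt on each side ran from 51.7% at Rps6ka4 to 85% at Fnbp4.

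These 10 genes have varied roles. The Exosc2 site, in a subunit of the RNA exosome, lay at chr2:31680993-31680999 on the plus strand, in a stretch of 81 nt covered by peaks 83, 81 and 120 nt wide in replicates 1, 2 and 3. The Rps6ka4 site, in a stress‐activated kinase that phosphorylates histones, lay at chr19:6829360-6829366 on the minus strand under peaks of 103, 104 and 93 nt. The Cbx5 site, in the heterochromatin protein HP1α, lay at chr15:103198710-103198716 on the minus strand under peaks of 88, 83 and 83 nt. In these 3 genes every library gave a peak of the usual width.

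The Nedd4 site, in a ubiquitin ligase with a known part in neurite growth, was at chr9:72748161-72748167 on the plus strand. The Gch1 site, in the first enzyme of tetrahydrobiopterin synthesis, which catecholamine cells depend on, was at chr14:47154235-47154241 on the minus strand. The Nrp2 site, in a semaphorin receptor of growing axons, was at chr1:62799134-62799140 on the plus strand. The Ccnt1 site, in the cyclin of the elongation factor P‐TEFb, was at chr15:98539109-98539115 on the minus strand. Its peak in replicate 1 was 4504 nt wide, against 88 and 108 nt in replicates 2 and 3, so that peak alone does not locate the site. Fam126b (chr1:58524468-58524474, minus strand) and Fnbp4 (chr2:90780835-90780841, plus strand) had peaks of 82 to 84 nt and of 96 to 112 nt.

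Replicate 1 differed from the other libraries in how much 3′UTR it covered. Its peaks covered 6.64% of 3′UTR bases, against 17.6% in replicate 2 and 17.4% in replicate 3, although it listed 711377 peaks against 498071 and 829936. Most peaks were narrow, with medians of 83, 84 and 85 nt, none was narrower than 79 nt in any library, and the widest exceeded 60 kb (60321, 91047 and 112841 nt). The deposited peak score was 60 for 98.9% to 99.6% of peaks, so it gave no height to compare, and the read depth behind a peak is unknown. Of 19 neuroblastoma and neuronal marker genes, 11 had a peak in the 3′UTR in every library, Hand2, Stmn2 and Mycn among them, while Th and Nefl had none in any. Of the markers of other cell types, 2 of 6 glial (Mbp among them), 1 of 6 myeloid (Ptprc) and 0 of 4 hepatocyte genes had such a peak in all 3, and their part in the results was not tested.

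The members were spread unevenly over the libraries. Replicates 2 and 3 without replicate 1 covered 190 of the 303 sites, replicates 1 and 3 covered 40, replicates 1 and 2 covered 27, and all 3 libraries covered 46. Without replicate 1, with both other libraries required, 236 sites were left. Without replicate 2 there were 86, and without replicate 3 there were 73. The median width of the peaks over members was 93 nt in replicate 1, 102 nt in replicate 2 and 103 nt in replicate 3. The stretches themselves ran from 9 to 2131 nt with a median of 119.5 nt, against a median of 86 nt over all 30379 stretches. A longer stretch has more room for any 7 bases. At the lower edge of the rule were Fnbp1l (9 nt), Sepsecs (11 nt), Ccdc77 and Rars (both 14 nt) and Pdgfc (19 nt), all of them 7mer‐m8 sites covered in 2 libraries. No match lay in a covered stretch of exactly 7 nt, just outside the rule, and 33 matches lay partly inside a stretch.

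The first question was whether miR‐9‐5p matches were found under peaks more often than the 3′UTRs that carry them would give. They were not distinguishable from their surroundings. The 303 members were 9.93% of all matches (95% Wilson interval 8.92% to 11%), and 9.82% of all 7‐nt windows in the same 2569 3′UTRs lay in such stretches. Matches covered in all 3 libraries were 1.51% (1.13% to 2.01%), against 1.6% of the windows. When the expected number was built from the covered share of each 3′UTR on its own, 303.6 covered matches were expected and 303 were found. These intervals cover counting error only.

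The same held library by library, where the rule that chose the members plays no part. In replicate 1, 216 of 3051 matches (7.08%) lay wholly under a peak, against 6.49% of windows. In replicate 2, 515 matches (16.9%) did, against 17.4%. In replicate 3, 541 matches (17.7%) did, against 16.7%. The ratio of match to window share was 1.09, 0.971 and 1.06, above 1 in 2 libraries and below 1 in replicate 2. On the log2 scale the mean was 0.06 ± 0.09 (SD, n = 3), and a 2‐sided exact sign‐flip test over the libraries gave p = 0.5. With 3 libraries this test cannot go below 0.25. A 95% interval from the 3 values, taken as normally spread, ran from 0.894‐ to 1.21‐fold, so an excess of up to that size remained possible.

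**Figure D1:**
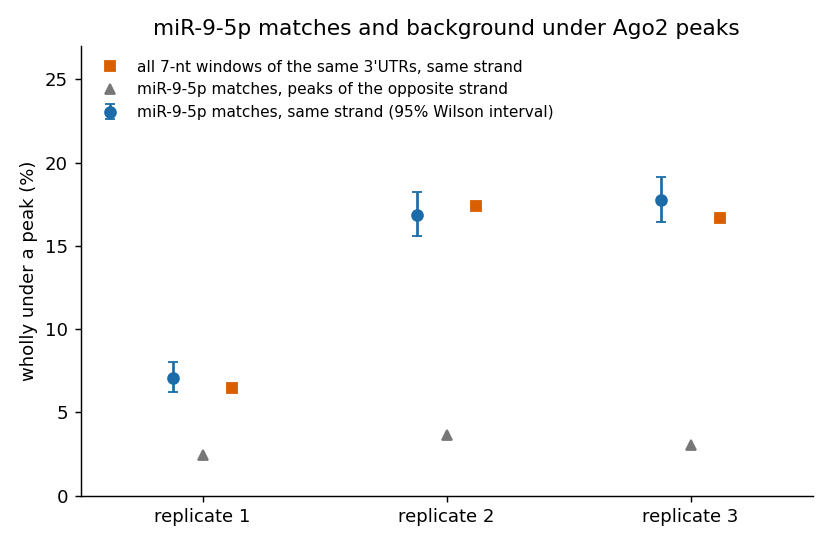
Share of sequences wholly under an Ago2 peak (y axis, %) in each library (x axis): miR‐9‐5p matches on the gene's strand (circles, bars are 95% Wilson intervals, 3051 matches), all 7‐nt windows of the same 3′UTRs (squares), and the same matches under peaks of the opposite strand (triangles). Circles and squares lie close together in every library (7.08% and 6.49%, 16.9% and 17.4%, 17.7% and 16.7%), while the triangles lie below both.

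Peaks did follow the strand of the gene. On the same strand 216, 515 and 541 matches were covered in replicates 1, 2 and 3, and on the opposite strand 75, 111 and 93. The same strand was therefore higher by 2.88‐, 4.64‐ and 5.82‐fold, a mean log2 ratio of 2.09 ± 0.52 (SD, n = 3, exact sign‐flip p = 0.25, higher in 3 of 3 libraries), with a 95% interval of the same kind from 0.81 to 3.38. Its size depended on the peaks used. The mean log2 ratio was 3.31 with peaks of at most 1000 nt, 4.90 with peaks of 86 to 200 nt only and 1.53 with peaks trimmed by 30 nt on each side. With the stretch rule applied to the opposite strand, 16 matches (0.524%, Wilson interval 0.323% to 0.850%) were counted, against 0.434% of windows.

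How usual the miR‐9‐5p value is can be read from all other 7‐mers. Among 15227 7‐mers with at least 200 occurrences in 3′UTRs, the match ranked 6293 by the ratio of observed to expected occurrences in stretches of at least 2 libraries, with a ratio of 0.998. Among the 4292 with the same number of A or T (4), it ranked 2111, beside a median of 0.995. The match of miR‐17‐5p, with the same number of A or T, ranked 11 of 4292: 561 occurrences were covered and 380.7 were expected, a ratio of 1.47. The match of let‐7a‐5p ranked 119 of 4122 7‐mers with 3 A or T, with 232 covered and 200.8 expected (ratio 1.16). Over these stretches 50.8% of 7‐mers with the same number of A or T lay below the miR‐9‐5p match, 99.7% below that of miR‐17‐5p and 97.1% below that of let‐7a‐5p. In single libraries the rank of the miR‐9‐5p match varied, with 85.3% of such 7‐mers below it in replicate 1 (rank 629 of 4292), 32.5% in replicate 2 (rank 2896) and 70.2% in replicate 3 (rank 1277).

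**Figure D2:**
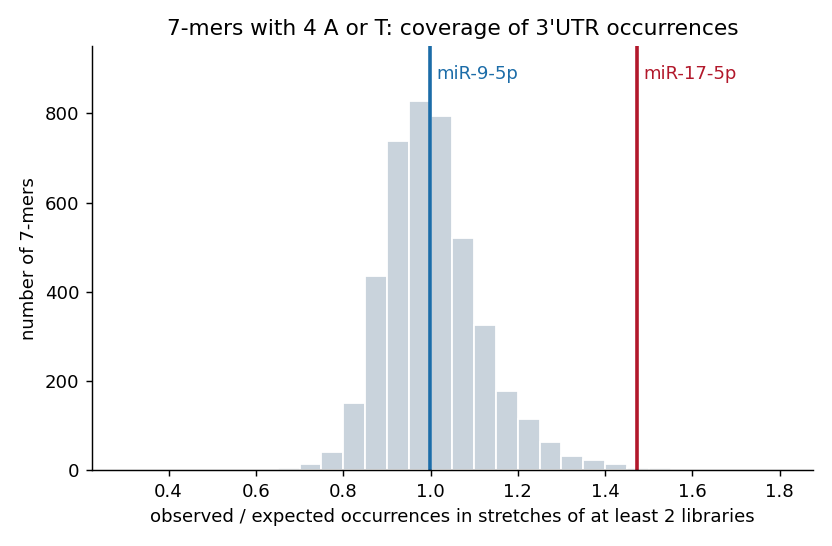
Number of 7‐mers (y axis) by their ratio of observed to expected 3′UTR occurrences in stretches covered by at least 2 libraries (x axis, no unit), for the 4292 7‐mers with 4 A or T. The line for miR‐9‐5p (0.998) stands at the middle of the distribution and the line for miR‐17‐5p (1.47) beyond nearly all of it.

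Per library, the within‐3′UTR ratio of miR‐17‐5p matches was 1.30, 1.35 and 1.23 in replicates 1, 2 and 3, and that of miR‐9‐5p matches 1.10, 0.975 and 1.04. The miR‐17‐5p value was the higher in each library, by a mean of 0.31 ± 0.13 on the log2 scale (SD, n = 3, exact sign‐flip p = 0.25), with a 95% interval from 0.986‐ to 1.57‐fold. The let‐7a‐5p ratio was 1.07, 1.18 and 1.08, lower than that of miR‐9‐5p in replicate 1 and higher in the other two. That difference averaged 0.09 ± 0.17 (log2, p = 0.5, exact sign‐flip test, n = 3), with a 95% interval from 0.800‐ to 1.42‐fold, which is wide. With 2 pairs of miRNAs compared and a smallest possible p of 0.25, neither difference could pass a threshold in this test.

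A second view asked whether a match covered in 2 libraries was covered in the library left out, which the 2 others did not choose. For matches in stretches shared by replicates 2 and 3, 46 of 236 (19.5%) were also covered in replicate 1, against 23.5% of all windows in such stretches of the same 3′UTRs. For replicates 1 and 3, 46 of 86 (53.5%) were covered in replicate 2, against 68.0%. For replicates 1 and 2, 46 of 73 (63.0%) were covered in replicate 3, against 62.9%. The ratio of matches to windows was thus 0.828, 0.787 and 1.00, with a mean log2 of −0.21 ± 0.18 (SD, n = 3, exact sign‐flip p = 0.5) and a 95% interval from 0.633‐ to 1.19‐fold. The same 46 sites stand in all 3 ratios, so the ratios are not independent. The SD, test and interval treat them as if they were and are descriptive only. The windows were pooled, which gives long stretches more weight. Matches outside the shared stretches of the same 3′UTRs were covered in the held‐out library in 19.3% (11 of 57), 53.8% (14 of 26) and 50.0% (14 of 28) of cases. The first 2 of these shares were almost those of the selected matches.

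Within a miRNA's sites, an A after the match is known to be bound by Argonaute itself, so 8mers and 7mer‐m8 matches were compared. There were 941 8mers and 2110 7mer‐m8 matches. The 8mers were covered more often in every library, 7.76% against 6.78% in replicate 1, 18.5% against 16.2% in replicate 2 and 19.2% against 17.1% in replicate 3. The difference was 1.83 ± 0.74 percentage points (SD, n = 3, exact sign‐flip p = 0.25, higher in 3 of 3), with a 95% interval from −0.0055 to 3.66. With peaks trimmed by 30 nt on each side it was 1.03 ± 2.07 points (SD, n = 3, exact sign‐flip p = 0.75), and the libraries no longer all had the same sign. Windows with the same number of A or T that were followed by A differed from the other windows by 0.397, −0.025 and 0.296 percentage points, smaller than the difference of the matches in each library.

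Set against the windows of their own 3′UTRs, 8mers were covered 1.29, 1.06 and 1.20 times as often in replicates 1, 2 and 3, a mean log2 ratio of 0.24 ± 0.15 (SD, n = 3, exact sign‐flip p = 0.25). The 8mers in stretches of at least 2 libraries numbered 106 of 941 (11.3%), where the covered share of each 3′UTR gave an expected 94.9. The 7mer‐m8 sites numbered 197 of 2110 (9.34%), with 208.7 expected. Of the 303 members 35.0% were 8mers, and of the 63 other matches in the same 3′UTRs 33.3% (21) were. In all 3 libraries, 17 of the 941 8mers were covered, and they were 37.0% of the 46 members covered there. Of all 7‐nt windows in 3′UTRs with a match, 1.6% were covered in all 3 libraries.

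Binding sites of a protein are usually sought near the middle of its crosslinking peaks, so the place of the matches was examined in peaks of at most 200 nt. Within 20 nt of the midpoint lay 55.7% of match and peak pairs in replicate 1 (93 of 167), 45.5% in replicate 2 (218 of 479) and 42.5% in replicate 3 (219 of 515). For all windows the shares were 47.5%, 43.0% and 42.6%. The difference was 8.18, 2.52 and −0.11 percentage points, with the largest value in replicate 1, which also had the fewest pairs. The mean was 3.53 ± 4.24 points (SD, n = 3, exact sign‐flip p = 0.5), with a 95% interval from −6.997 to 14.1. It was 1.20 points without replicate 1 and 5.35 without replicate 3. In a narrower central window of 10 nt on each side the mean difference turned to −0.30 points, and in peaks of at most 85 nt to −1.79 points.

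**Figure D3:**
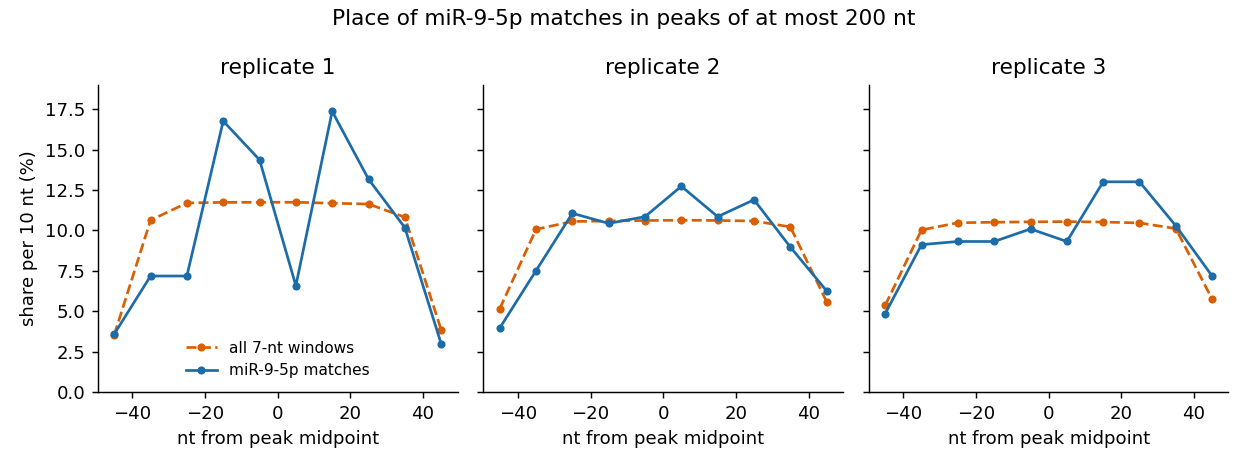
Share of miR‐9‐5p matches (solid line) and of all 7‐nt windows (dashed line) per 10 nt (y axis, %) by distance from the midpoint of the peak (x axis, nt, negative toward the 5′ side), 1 panel per library, peaks of at most 200 nt. The solid line follows the dashed one in replicates 2 and 3 and is uneven in replicate 1, which has 167 pairs of match and peak.

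Matches of the other miRNAs were placed in the same way. For let‐7a‐5p the share near the midpoint exceeded that of windows by 18.4, 14.7 and 7.46 points in replicates 1, 2 and 3, and for miR‐17‐5p by 6.66, 9.65 and 6.58 points. The let‐7a‐5p excess was larger than that of miR‐9‐5p in each library, by 9.99 ± 2.32 points (SD, n = 3, exact sign‐flip p = 0.25), with a 95% interval from 4.23 to 15.8. The miR‐17‐5p excess was larger in 2 of 3 libraries, by 4.10 ± 4.87 points (exact sign‐flip p = 0.5, n = 3), with an interval from −8.00 to 16.2.

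Features that the rule did not use were then compared between covered and uncovered matches of the same 3′UTRs. Uncovered matches could come only from 3′UTRs with more than a single match, so the comparison is not paired within 3′UTRs. The median 3′UTR length was 2895 nt for members and 5900 nt for the 63 other matches. Per library, the 30 nt on each side of covered matches held more A or T than those of uncovered ones, by 3.05, 2.98 and 1.93 percentage points (2.65 ± 0.63, SD, n = 3, exact sign‐flip p = 0.25). All windows showed the like, by 3.01, 3.03 and 3.38 points, a gap of about the same size. The final 25% of the 3′UTR held 24.5%, 22.7% and 25.1% of covered matches and 15.5%, 17.5% and 21.4% of the uncovered, a difference of 6.01 ± 2.72 points (exact sign‐flip p = 0.25, n = 3). Over the members as a whole, 26.1% lay in the final 25%. The Wilson interval of that share was 21.5% to 31.3%. Among the 63 other matches of the same 3′UTRs 15.9% did (8.86% to 26.8%), and among all 2748 other matches 23.2% did. Of covered windows 24.04%, 23.89% and 24.16% lay there in replicates 1, 2 and 3, and of uncovered ones 25.04%, 25.30% and 25.17%. Pairing to positions 13 to 16 of miR‐9‐5p, searched as GCTA on the transcript strand from 3 to 10 nt upstream of the match, was rare. It was found at 2 of 303 members, at 1 of 63 other matches in their 3′UTRs and at 35 of all 2748 other matches, and in no library did the shares of covered and uncovered matches differ by more than 0.443 points.

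Counting bases of miR‐9‐5p that pair in an unbroken run beyond position 8, the longest runs among members were at Mob1a, a Hippo pathway kinase activator (5 bases), and Pmp22, a myelin protein (4 bases). The longest run among matches that were not members was also 4 bases. They are shown because their upstream flanks carry that run, directly 5′ of the capitals.
Mob1a: atgtggactgagataACCAAAGttatttta
Pmp22: caacctcataggataACCAAAGtgtgggga
The Mob1a site (chr6:83340920-83340926, plus strand) was covered in replicates 2 and 3. The Pmp22 site (chr11:63158854-63158860, plus strand) was covered in all 3 libraries, 2.5 and 5.5 nt from the midpoints of peaks 94 and 86 nt wide in replicates 1 and 2, and 40 nt from that of a 97‐nt peak in replicate 3.

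Genes were counted next. Of the 2569 genes with a match, 983 (38.3%) had peaks in the 3′UTR in every library, and in 45 of these (4.58%) all 3 libraries covered a match. The 983 genes held 1230 matches, of which 3.74% were covered in all 3 libraries, against 3.22% of their windows. In at least 2 libraries, 1558 genes had a peak and 272 (17.5%) had a member. Of the 1887 matches in these 1558 genes 16.1% were members, against 14.1% of their windows pooled, which weights long 3′UTRs more than the 303.6 members expected 3′UTR by 3′UTR do. Among the 19102 genes without a match 21.2% had a peak in all 3, and the median length of their 3′UTRs was 784 nt, against 2417 nt for genes with a match. Of all genes with a match, 10.6% had a member.

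Most genes (246 of 272) held a single member. Pou2f1, the POU factor Oct‐1, held the most, with 6 sites in 5 stretches, 5 of them 8mers and 2 covered in all 3 libraries. The 6 are shown in 5′ to 3′ order because this 3′UTR of 10587 nt carried more covered sites than any other here.
Pou2f1 site 1: ttaaactaagcttgaACCAAAGtcaattct
Pou2f1 site 2: tgaaagaatgtagaaACCAAAGaggttatt
Pou2f1 site 3: ggatttgattttgatACCAAAGacaactgc
Pou2f1 site 4: ccatttccagccaaaACCAAAGatttctta
Pou2f1 site 5: aaaacaaacaaaaaaACCAAAGaaaaggga
Pou2f1 site 6: tagcctgatgcagatACCAAAGacaatttc
The first lay at chr1:165873480-165873486 and the last at chr1:165866347-165866353, on the minus strand. Sites 1 and 4 were covered in all 3 libraries, site 5 in replicates 1 and 3, and the rest in replicates 2 and 3. Sites 4 and 5 shared a stretch of 110 nt, so they are not separate observations.

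The background of this 3′UTR was high. Peaks covered 23.4% of it in replicate 1, 65.9% in replicate 2 and 57.0% in replicate 3, and 50.2% of its windows lay in stretches of at least 2 libraries. Its 8 matches would therefore give 4.02 covered sites, against the 6 found. The 2 uncovered matches were both 7mer‐m8, and replicate 2 alone covered 1 of them.

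**Figure D4:**
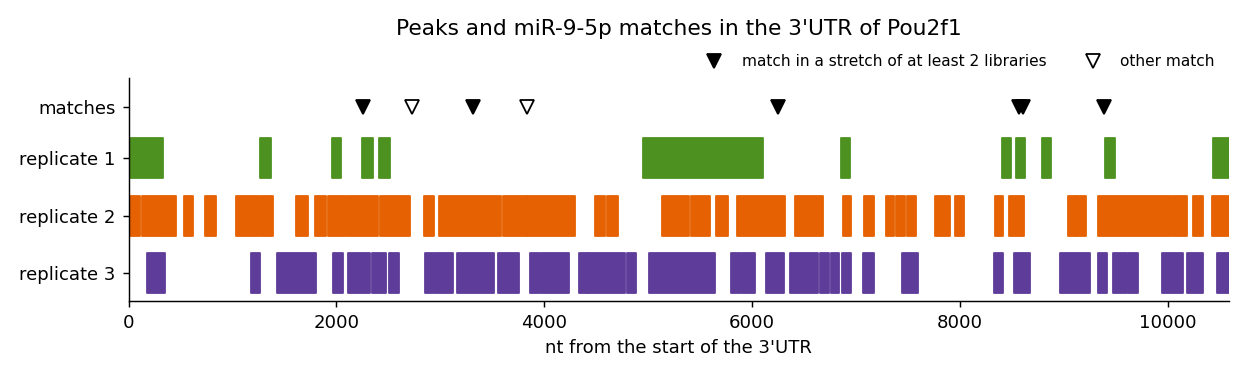
Map of the Pou2f1 3′UTR (x axis, nt from its start, 10587 nt) with the stretches under same‐strand Ago2 peaks in replicates 1, 2 and 3 (bars) and the miR‐9‐5p matches (filled triangles, 6 members; open triangles, 2 other matches). Peaks of replicates 2 and 3 cover more than 57% of the 3′UTR each and those of replicate 1 cover 23.4%.

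Zbtb20, a zinc finger repressor of brain development, followed with 3 sites in a 3′UTR of 23861 nt, all 3 covered in replicates 1 and 2 and not in replicate 3. Its 6 matches gave 1.09 expected. A further 24 genes had 2 sites each. These included Ap1s2 of the clathrin adaptor AP‐1, Cpeb2 and Cnot6l of poly(A) tail control, and Cbx5, Ddhd2, Kansl3 and Lrig2. Cpeb2 held 2 of its 2 matches in stretches (1.63 expected, with 81.4% of the 3′UTR in stretches) and Lrig2 2 of 2 (0.426 expected, with 21.3% in stretches). A high count thus came in some genes whose 3′UTR was mostly in stretches and in others where less of it was.

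Of 25 genes listed as known miR‐9‐5p targets, 19 had a match in the 3′UTR used and 7 had a member (36.8%, beside 10.6% of all genes with a match). The 7 were Onecut2 and Lin28b, Elavl1, Map1b, Nfkb1, Sirt1 and Socs5. They held 8 member sites, and the covered share of each gene's own 3′UTR gave an expected 7.43, so the sites of the list were covered about as often as their 3′UTRs were. None of the 8 was covered in all 3 libraries. Every one was covered in replicates 2 and 3 and none in replicate 1, and without either replicate 2 or replicate 3 no gene of the list had a member. In peaks of 86 to 200 nt only, 3 of the genes had one, and with peaks trimmed by 30 nt on each side 2 had.

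The member sites in 6 of these 7 genes are shown, since each lay under peaks of the same 2 libraries, and those of Onecut2 are described by their values alone.
Elavl1: tatggtttgaccaatACCAAAGaggctttg
Lin28b: actctgaacgctcaaACCAAAGttccttga
Map1b: ttaactgaagcaaatACCAAAGcaggtggg
Nfkb1: ccccacactgtgtaaACCAAAGccctgaca
Sirt1: gaacagcttatctagACCAAAGaatggtat
Socs5: agatgcagacctttaACCAAAGacttgttc
Elavl1 encodes the RNA‐stabilizing protein HuR, and its site (chr8:4286836-4286842, minus strand) was an 8mer under peaks of 87 and 82 nt, 11 and 23.5 nt from their midpoints. Lin28b encodes an RNA‐binding protein that blocks let‐7 maturation, and its site (chr10:45379074-45379080, minus strand) lay under peaks of 121 and 94 nt. All 4 of its matches were under a peak in replicate 2, and 1 in replicate 3. Sirt1, an NAD‐dependent deacetylase, had an 8mer (chr10:63320285-63320291, minus strand), as did Socs5, an inhibitor of cytokine signaling (chr17:87137064-87137070, plus strand).

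Map1b, a microtubule‐associated protein of growing axons (chr13:99424892-99424898, minus strand), had 88.1% of its 3′UTR in stretches. Nfkb1, which encodes the NF‐κB subunit p50, had 95.1% of its 754 nt in stretches, under peaks of 617 and 525 nt at its site (chr3:135585319-135585325, minus strand). In these 2 genes nearly any match would have become a member. In Socs5 15.6% of the 3′UTR was in stretches and in Onecut2 6.63%.

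Onecut2 had the most matches of the list, with 14 in a 3′UTR of 14359 nt, of which 9 were 8mers. Replicate 1 covered 0 of the 14, replicate 2 covered 3 and replicate 3 covered 5. Its 2 members, both 8mers in 1 stretch of 99 nt, share that stretch, and the peak in replicate 2 was 1342 nt wide.

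The other 12 known targets with a match had no member, and 6 listed genes, Hes1, Meis2, Stmn1, Fgfr1, Actl6a and Isl1, had no match in the 3′UTR used. In Rest every library gave a 3′UTR peak and 23.3% of the 3′UTR lay in stretches, but its 1 match was under no peak. Id4 and Bcl2l11 likewise had 3′UTR peaks in every library and no match under any. Onecut1 had 2 of 3 matches under a peak in replicate 1, Cdh1 had its match covered in replicate 1 and Foxp1 had 1 of 2 covered in replicate 2. Nr2e1 and Foxp2 had a 3′UTR peak in replicate 3 alone, away from the match. Zic5 had peaks in replicates 2 and 3, also away from its match. Hmga2 and Gsx2 had no 3′UTR peak in any library, so nothing could be read on their sites.

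The remaining lists were small. Among 28 genes of the miRNA pathway and RNA‐binding proteins, 11 had a match and 6 had a member (54.5%), with 6 member sites against 5.89 expected. Tnrc6b, a GW182 scaffold that binds Argonaute, was covered in all 3 libraries (chr15:80939579-80939585, plus strand) under peaks of 103, 100 and 94 nt. Tnrc6a of the same family was covered in replicates 1 and 2, with a peak of 2694 nt in replicate 1. Lin28a was covered in replicates 1 and 2, and Rbfox2, a splicing factor, in replicates 2 and 3.

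Among 20 growth control genes, 7 had a match and 3 a member (42.9%, 2.45 expected). Map3k1, a kinase upstream of JNK, was covered in all 3 libraries under peaks of 103, 412 and 95 nt (chr13:111746711-111746717, minus strand). Tgfbr1, a receptor of TGF‐β, was covered in replicates 2 and 3. Neural transcription factors gave 2 genes of 13 with a match, Nfib and Onecut2 (15.4%, 3 sites against 2.49 expected). The REST and BAF chromatin complexes gave 1 of 6, the CoREST family member Rcor3 (16.7%, 0.861 expected). The Notch pathway gave 1 of 3, Notch2 (33.3%, 0.524 expected), and cytoskeleton and axon growth 1 of 3, Map1b (33.3%, 1.29 expected). In each list the number of member sites lay within 1 of the number expected from the covered share of its 3′UTRs.

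The loci of miR‐9 itself were also looked up. No same‐strand peak overlapped the Mir9-1 (chr3:88215598-88215686) or Mir9-2 (chr13:83738814-83738885) hairpin in any library. The Mir9-3 hairpin (chr7:79505264-79505353) lay under 1 peak of 3335 nt in replicate 1 and under none in replicates 2 and 3. A peak list of this kind need not hold mature miRNA reads, so the level of miR‐9‐5p in these cells was not measured here.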

How the data were processed

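Ago2 HITS‐clip peaks of 3 N2A samples were used, 1 list per library. Per the labels, the submitters' processing notes name FastQC, cutadapt, STAR and the mm10 build. The peak caller and its threshold are not given in the sources used here. The deposited table gives chromosome, start and stop positions, strand and a score per peak, and no read counts. Starts were read as 0‐based. Score values were not used because nearly all were 60.

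The longest 3′UTR per protein‐coding gene (GENCODE M21, GRCm38) was spliced and its bases were marked per library where a same‐strand peak covered them. Matches to positions 2 to 8 of miR‐9‐5p were searched on the transcript strand. All 7‐nt windows of 3′UTRs with a match were the background. Libraries were compared by the exact 2‐sided sign‐flip test over 3 values. The members, gene lists and tests were chosen with earlier results of these data known. Named genes were those of the lists, the 10 8mer members of shortest stretch covered in all 3 libraries, up to 10 genes with most sites, the members of shortest stretch and, chosen after their values were seen, Mob1a and Pmp22. Some genes of these groups are not reported here. Alternatives changed peak width, trimming, 3′UTR models, library number and site type. The coverage ratio and the count of members were tested on simulated peaks. The 8mer, midpoint and strand measures and the reading of peak positions were not. Software was pysam 0.24.0, pandas 2.3.3, matplotlib 3.10.9, numpy 2.4.6 and scipy 1.17.1 under Python 3.11.15.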

Additional observations from a re-analysis of the deposited data

How the results depend on the processing

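Of 60 alternative values for 7 results, 45 kept their direction or stayed within 1.5 times the value reported. The number of members (303) was 198 sites in peaks of 86 to 200 nt only, 100 with peaks trimmed by 30 nt on each side, 46 with all 3 libraries required and 106 for 8mer matches only. Leaving out 1 library gave 73 to 236 sites. The known targets with a member, under the same alternatives, also applied after seeing the data, ranged from 0 to 7. The mean log2 coverage ratio of matches over the libraries stayed above 0 under all 11 alternatives, from 0.02 (without replicate 1) to 0.24 (8mers only). One of these, the expectation within each 3′UTR (0.05), was chosen after seeing the data. Single libraries differed in sign: in the setting reported, replicate 2 was below 0 (log2 −0.042). The held‐out ratio was below 0 under 7 of 8 alternatives and 0.0016 (log2) for replicate 3 alone. The midpoint difference was −1.79 points in peaks of at most 85 nt and −0.30 points in the central window of 10 nt on each side. The cause was not tested. The sign‐flip test could not pass a threshold with 3 libraries. The 8mer difference (1.03 to 2.25 points) and the strand ratio (log2, 1.53 to 4.90) kept the direction of their mean in the 7 alternatives of each, but with trimmed peaks the 8mer difference (1.03 points, p = 0.75 by the exact sign‐flip test) no longer had 1 sign in all libraries. No paired analysis was possible because all samples belong to 1 group and no second group shares their numbers. Peak lists without read counts limit what a covered site means: every covered base counts alike, and no peak was narrower than 79 nt. Peaks may thus have been extended by about 30 nt on each side, which the sources used here do not state, and the trimmed setting above removes that much. The match of miR‐124‐3p was not analysed here.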
